A study of Nasonia vitripennis with 6 samples.

Results

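Nv-htl (Nasvi2EG023769) and Nv-stumps (Nasvi2EG010085) are the FGF (fibroblast growth factor) pathway genes that the study placed in the presumptive mesoderm of the wasp Nasonia vitripennis, and they were chosen by these 2 gene identifiers, each paired with 1 of the 20033 loci in the deposited table. The study selected its genes by differential expression in the same libraries used here. The calls, p-values and ranks of both members are therefore not independent evidence that they respond. RNA was measured in 6 libraries from pools of late blastoderm embryos collected 4 to 7 h after egg lay. All mothers were injected as female yellow pupae, and double-stranded RNA given in this way acts on the offspring (parental RNAi, pRNAi). The Toll pRNAi group holds 2 libraries from mothers that received Toll dsRNA, the BMP pRNAi group holds 1 library after dpp dsRNA and 1 after gbb1 dsRNA, and the water group holds 2 libraries from mothers injected with water. The Toll dsRNAs were made against separate parts of Nv-TollA, 1 of the Toll genes of the wasp. Because the BMP group joins 2 ligand genes with 1 library each, a difference between the ligands has no replicate. The study treats the libraries of each knockdown as biological replicates and the water libraries as independent pools. P-values measure the spread between these pools, which may be technical in part. In the knockdown groups that spread also includes the difference in dsRNA.

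FGF ligands bind receptor tyrosine kinases at the cell surface, and the activated receptor signals through adaptor proteins to the MAP kinase cascade. In Drosophila the receptor Heartless (Htl) and the adaptor Stumps (also called Dof or Heartbroken) act in the mesoderm, where they are needed for the invaginated cells to spread over the ectoderm. In the fly both genes lie downstream of Twist, a transcription factor that specifies the mesoderm under the control of Toll and Dorsal. BMP signalling patterns the dorsal side of insect embryos, and in Nasonia it acts over much of the dorsoventral axis. The design asks how each gene responds when the ventral Toll signal or the BMP signal is reduced.

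Nv-htl lies on scaffold 204 of assembly 1.0, from 270046 to 285009. The study names this identifier breathless in its annotation list and htl in its list of fly genes, and its text uses both names. Both are fly FGF receptors, so the identity of the receptor ortholog is uncertain. The Nv-stumps locus lies on scaffold 20, from 222313 to 249763. It also holds Nasvi2EG010086, and the share of its fragments that belongs to Nv-stumps cannot be told apart. Whether these fragments fall in exons, introns or UTRs was not analysed here, and the TruSeq libraries are not known to keep strand, so antisense transcripts would be counted with the gene. Values for the FGF ligand thisbe were not analysed here. In situ hybridisation in the study also found Nv-htl transcripts on the dorsal side, beside the ventral domain, and RNA of whole embryos adds both domains together.

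Depth was between 22754267 and 30590172 fragments per library. The RNAi target Nv-TollA measured 1.23 and 4.92 FPKM (fragments scaled by the authors to transcript length and library size) in the Toll libraries, called Toll 1 and Toll 2 in that order, and between 101 and 128 FPKM in the other 4 libraries. Nv-dpp measured 7.03 FPKM in the dpp library, 12.7 in the gbb library and between 17.0 and 18.7 elsewhere. No identifier for gbb was paired with a locus here, so its knockdown was not checked. The ventral markers Nv-twi, Nv-sna and Nv-sim and the dorsal marker Nv-zen were detected in every library.

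Nv-htl, the receptor, was low after Toll pRNAi and high after BMP pRNAi. Its level was 0.853 FPKM in Toll 1 and 1.43 in Toll 2, 7.69 and 8.09 in the water libraries, 12.7 in the dpp library and 15.8 in the gbb library. The groups did not overlap, and the order was Toll pRNAi, water, BMP pRNAi. Such separation is common with 2 libraries per group. Of the loci tested, 28.1% had Toll libraries below water without overlap, and 33.4% had BMP libraries above water. The share with the full order was not counted. These levels rest on 121 and 159 fragments in the Toll libraries, 1077 and 934 in water, and 1767 and 2391 after BMP pRNAi. For the lowest of these, the exact Poisson interval at 95% was 100.4 to 145 fragments, which covers counting error only. The receptor was therefore measured well above zero in each library.

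Nv-stumps, the adaptor, followed the same order at a lower level. Its locus measured 0.596 FPKM in Toll 1 and 0.553 in Toll 2, 3.57 and 3.75 in the water libraries, 7.54 in the dpp library and 7.92 in the gbb library. Again no groups overlapped, beside the same shares of all loci. Libraries of one group lay closer together than for the receptor. The fragment counts were 73 and 72 after Toll pRNAi, 539 and 464.572 in water, and 1172 and 1354 after BMP pRNAi, where a fraction arises from fragments that the authors divided between places they map to. The exact Poisson interval for the lowest count was 56.3 to 90.7 fragments. In the ranking of all 10241 loci tested by FPKM, the receptor stood at percentile 22.1 and 26.7 in the Toll libraries and at 53.6 and 58.0 after BMP pRNAi, and the adaptor at 19.0 and 18.3 and at 44.7 and 46.1.

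**Figure D1:**
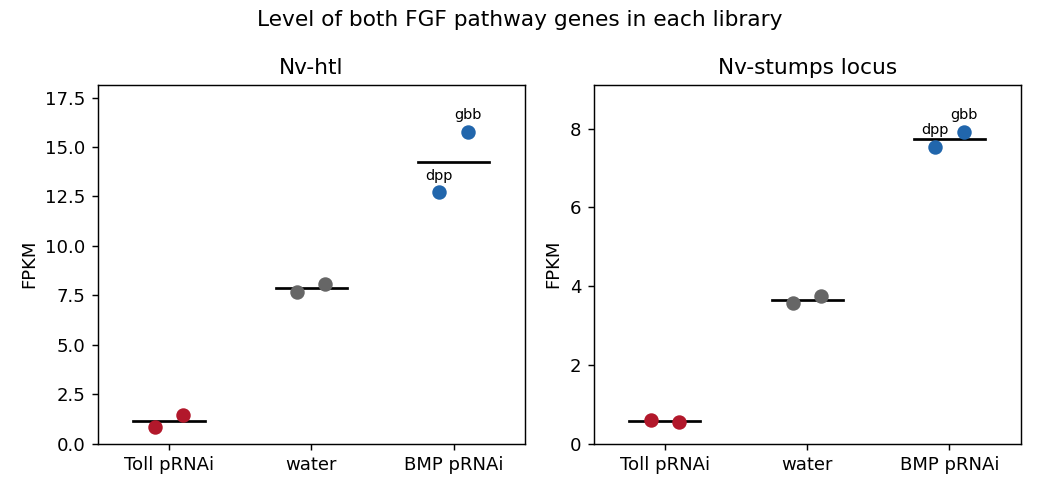
Level of Nv-htl (left) and of the Nv-stumps locus (right) in FPKM, with 1 point per library and a black line at the mean of the 2 libraries of each group. For both genes the Toll pRNAi libraries lie lowest and the BMP pRNAi libraries highest, and no groups overlap: Nv-htl runs from 0.853 to 15.8 FPKM and the Nv-stumps locus from 0.553 to 7.92 FPKM. Of the loci tested, 28.1% had Toll libraries below water without overlap, and 33.4% had BMP libraries above water.

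Knockdown of Toll lowered both genes. Mean Nv-htl fell to 14.4% of the water level, from 7.89 ± 0.29 (SD, n = 2) to 1.14 ± 0.41 FPKM (SD, n = 2). Its log2 fold change was -2.76 (SE 0.18, edgeR quasi-likelihood test with Benjamini-Hochberg adjustment, adjusted p = 0.000378). Mean Nv-stumps fell to 15.7% of the water level, from 3.66 ± 0.13 to 0.574 ± 0.030 FPKM (SD, n = 2 each), with a log2 fold change of -2.72 (SE 0.13, edgeR adjusted p = 6.43e-05). Both members were called lower, against 1.03% of the loci tested, and both had Toll libraries below water without overlap in FPKM, which held for 28.1% of loci. Ranked by log2 fold change from the most negative, Nv-htl was at place 13 and Nv-stumps at place 14 of 10241. The study had selected both genes with the help of these libraries, so these calls and places are not independent evidence. Since whole embryos were pooled, fewer mesoderm cells and less RNA per cell cannot be told apart.

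Knockdown of the BMP ligands raised both genes. The receptor reached 14.2 ± 2.2 FPKM (SD, n = 2), which is 1.80 times the water mean, and its log2 fold change was 0.79 (SE 0.16, edgeR adjusted p = 0.0314). The adaptor reached 7.73 ± 0.27 FPKM (SD, n = 2), which is 2.11 times the water mean, with a log2 fold change of 1.08 (SE 0.10, edgeR adjusted p = 0.0012). Higher calls made up 2.06% of the loci tested, and 33.4% of loci had BMP libraries above water without overlap. From the highest log2 fold change, Nv-stumps was at place 61 and Nv-htl at place 151 of 10241. Here too, more mesoderm cells and more RNA per cell cannot be told apart in pooled whole embryos. The call for the receptor was lost without either water library, at edgeR adjusted p-values of 0.222 and 0.0909, while its log2 fold changes of 0.74 and 0.85 stayed near the value with all libraries. The adaptor stayed past the threshold when any single library was left out, with an adjusted p of at most 0.0212.

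The direct comparison of the knockdowns gave the largest differences. The water libraries do not enter its fold changes in FPKM, but they were part of the edgeR fit. Nv-htl was 12.5-fold and Nv-stumps 13.5-fold higher in mean FPKM after BMP pRNAi than after Toll pRNAi. The log2 fold changes of Toll pRNAi over BMP pRNAi were -3.55 for Nv-htl (SE 0.18, edgeR adjusted p = 1.95e-05) and -3.79 for Nv-stumps (SE 0.12, edgeR adjusted p = 2.35e-06). The share of loci called lower was 1.06%, and the share without overlap in this direction was 34.4%. Nv-stumps stood at place 12 and Nv-htl at place 15 of 10241 from the most negative value.

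The libraries within a group differed more for the receptor than for the adaptor. Between Toll 2 and Toll 1, Nv-htl differed by 0.56 in log2 CPM (counts scaled to library size by TMM), and 92.7% of loci differed by less. The corresponding difference for Nv-stumps was 0.15, which 63.6% of loci did not reach. Toll 2 also held more of the targeted transcript and more Nv-twi, at 2.93 FPKM against 1.33 in Toll 1. The part of the remaining Nv-TollA in these differences was not tested. Between the gbb and dpp libraries the receptor differed by 0.32 in log2 CPM and the adaptor by 0.09, beside a median absolute difference of 0.19 over all loci. Relative to the mean of the water libraries, log2 CPM of Nv-htl was 0.62 higher in the dpp library and 0.94 higher in the gbb library, and that of Nv-stumps 1.03 and 1.12 higher. Both ligand libraries therefore lay above water for both genes.

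The receptor transcript exceeded the adaptor transcript per length in every library. The ratio of Nv-htl to Nv-stumps FPKM was 1.43 in Toll 1 and 2.58 in Toll 2, 2.15 and 2.16 in water, 1.69 in the dpp library and 1.99 in the gbb library. The widest spread was within Toll pRNAi, whose libraries lay on either side of all the others. The mean log2 ratio differed by -0.17 between Toll pRNAi and water (exact two-sided permutation test, p = 1.0, n = 2 per group), by -0.23 between BMP pRNAi and water (exact permutation p = 0.333) and by 0.07 between Toll pRNAi and BMP pRNAi (exact permutation p = 1.0). With 2 libraries per group the smallest p possible is 0.333, and over all 15 comparisons of ratios the lowest Benjamini-Hochberg adjusted value was 0.455. Pooled SDs of the log2 ratio were 0.42, 0.12 and 0.44 in the same order, so only the difference between BMP pRNAi and water was larger than the spread between libraries.

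**Figure D2:**
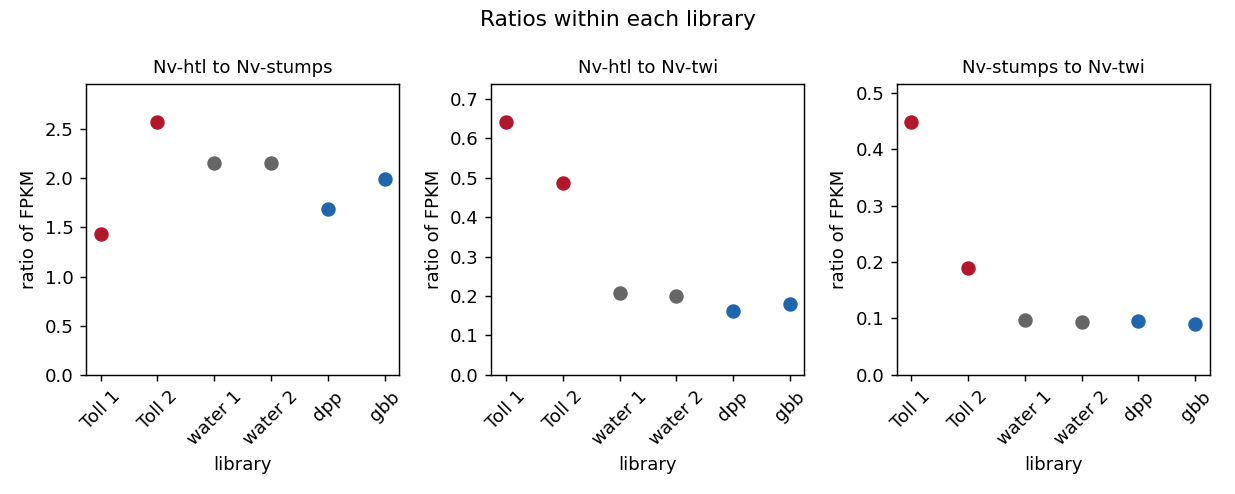
Ratio of FPKM within each library for Nv-htl to Nv-stumps, Nv-htl to Nv-twi and Nv-stumps to Nv-twi, with 1 point per library (red, Toll pRNAi; grey, water; blue, BMP pRNAi). The ratio of receptor to adaptor lies between 1.43 and 2.58, whereas both ratios to Nv-twi are highest in the Toll libraries, with values of 0.643 and 0.486 for the receptor.

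Nv-twi encodes the mesoderm transcription factor Twist, and after Toll pRNAi it was at a lower share of its water level than either member. It measured 1.33 and 2.93 FPKM in the Toll libraries, 37.0 and 40.3 in water, and 79.0 and 87.8 after BMP pRNAi. Its mean after Toll pRNAi was 5.5% of the water mean. Receptor transcript per Nv-twi transcript was 0.643 and 0.486 in the Toll libraries, 0.208 and 0.201 in water, and 0.161 and 0.180 in the dpp and gbb libraries. The adaptor ratio was 0.449 and 0.189 after Toll pRNAi and between 0.0903 and 0.0965 in the other libraries. Between Toll 2 and Toll 1 Nv-twi itself differed by 1.14 in log2 CPM, and 98.8% of loci differed by less. In whole embryos the receptor ratio also includes the dorsal Nv-htl transcripts, whose part in it was not tested. The receptor's mean log2 ratio to Nv-twi was 1.45 higher after Toll pRNAi than in water and that of the adaptor 1.62 higher, with pooled SDs of 0.20 and 0.63 (exact permutation p = 0.333 each, the smallest possible). Between BMP pRNAi and water the difference was -0.26 for the receptor and -0.03 for the adaptor (exact permutation p = 0.333 and 0.667). Over the 3 groups the exact permutation p was 0.0667 for the receptor, which is the smallest possible, and 0.133 for the adaptor.

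Nv-sna, the ortholog of snail, which encodes a repressor active in the fly mesoderm, kept a higher share of its water level than either member. The study also describes Nv-sna transcripts in yolk nuclei, which it regards as unaffected by Toll pRNAi, so its level in whole embryos is not that of the mesoderm alone. It measured 9.20 and 11.2 FPKM in the Toll libraries, 20.3 and 20.2 in water, 30.9 in the dpp library and 42.6 in the gbb library. Its mean after Toll pRNAi was 50.3% of the water mean. Nv-htl was at 37.9% and 40.1% of the Nv-sna level in the water libraries and at 9.27% and 12.8% in the Toll libraries, so the ratio was lower in both of them. The mean log2 ratio to Nv-sna differed by -1.84 for the receptor and by -1.67 for the adaptor between Toll pRNAi and water (exact permutation p = 0.333 each, the smallest possible). After BMP pRNAi the receptor was at 41.2% and 37.1% of the Nv-sna level, and the adaptor at 24.4% and 18.6%, against 17.6% and 18.6% in water. The mean log2 ratio to Nv-sna differed between BMP pRNAi and water by 0.0049 for the receptor and by 0.24 for the adaptor, with pooled SDs of 0.09 and 0.20 (exact permutation p = 1.0 and 0.333).

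**Figure D3:**
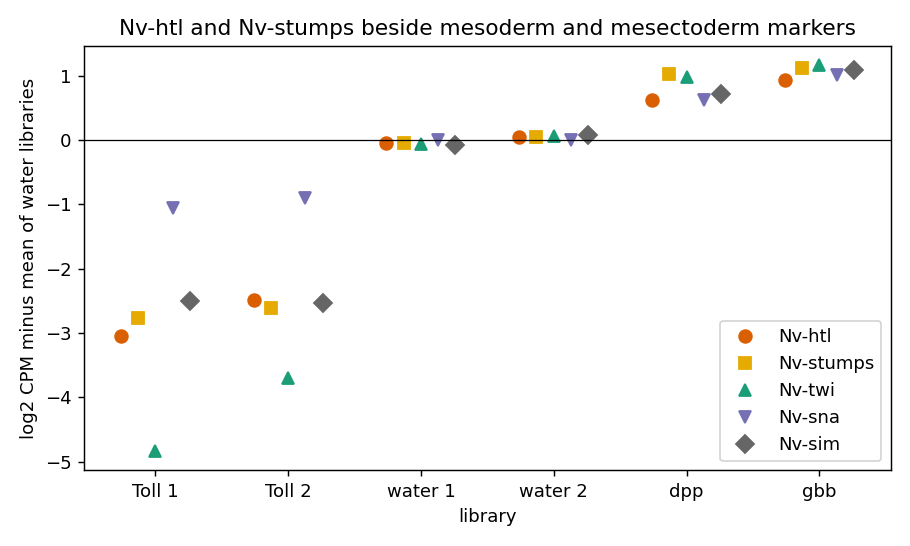
Level of Nv-htl, Nv-stumps, Nv-twi, Nv-sna and Nv-sim in each library, as log2 CPM minus the mean of the water libraries, with 1 symbol per gene and library. In the Toll libraries the members lie between Nv-twi and Nv-sna, at -3.05 and -2.49 for Nv-htl and -2.76 and -2.61 for Nv-stumps, and in the dpp and gbb libraries all of these genes are above the water mean.

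The list of genes that the study classed as ventral mesoderm holds 17 identifiers. It was selected by the authors with the help of these libraries and by in situ hybridisation, so the direction of its genes is not independent evidence. The text of the study places some of them elsewhere, with Nv-TollC and Nv-cg2254 along the outer borders of the mesoderm and Nv-neuralized in the mesectoderm. It also describes dorsal expression of Nv-cg2254 and Nv-inflated, which RNA of whole embryos adds to the ventral domain. Besides the members, 13 of the other 15 genes had a locus that could be assigned, and Nv-neuralized and Nv-CG14984 had none. The pairing lists differing loci first, so these 13 lean towards genes that changed. Under Toll knockdown, 12 of the 13 were called lower, beside 1.03% of all loci. The median log2 fold change of the 13 was -2.02 against 0.02 over all loci. The remaining gene, Nv-optix, a homeobox gene, had a log2 fold change of -0.64 (SE 0.18, edgeR adjusted p = 0.0783). In the order of log2 fold changes Nv-htl and Nv-stumps held places 6 and 7 of 15. Beyond them lay Nv-twi at -4.20, the Toll receptor gene Nv-TollC at -3.88, the ankyrin gene Nasvi2EG004500 at -3.82, Nv-CG42346 at -3.63 and the homeobox gene Nv-six4 at -3.25, with SEs between 0.17 and 0.26. Nv-zfh, a zinc finger homeodomain factor, was the next neighbour at -2.48 (SE 0.21), and its SE interval overlapped those of both members, although the difference itself was not tested. The loci of Nv-CG42346, Nv-netrin and Nv-tenascin-major hold 2 or 3 identifiers each, and their fragments cannot be assigned to one of them.

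After BMP pRNAi 6 of these 13 genes rose, beside 2.06% of all loci, and the other 7 did not pass the test. The median log2 fold change was 0.68 against 0.01 over all loci, and all 13 values were above 0. The genes that rose were Nv-six4 (1.21), Nv-TollC (1.14), Nv-twi (1.07), Nv-sna (0.84), Nv-zfh (0.80) and Nv-CG42346 (0.68). The adaptor, at 1.08, was at place 13 of 15 from the lowest and the receptor, at 0.79, at place 9. Without the first or the other water library only 1 of the 13 was called higher. The 7 that did not pass were Nv-netrin (a secreted guidance cue, 0.70), Nv-optix (0.63), Nv-tenascin-major (0.55), Nv-cg2254 (0.32), Nv-inflated (an integrin subunit, 0.28), Nv-tweety (a chloride channel, 0.23) and Nasvi2EG004500 (0.10), with edgeR adjusted p-values between 0.0604 and 0.674.

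**Figure D4:**
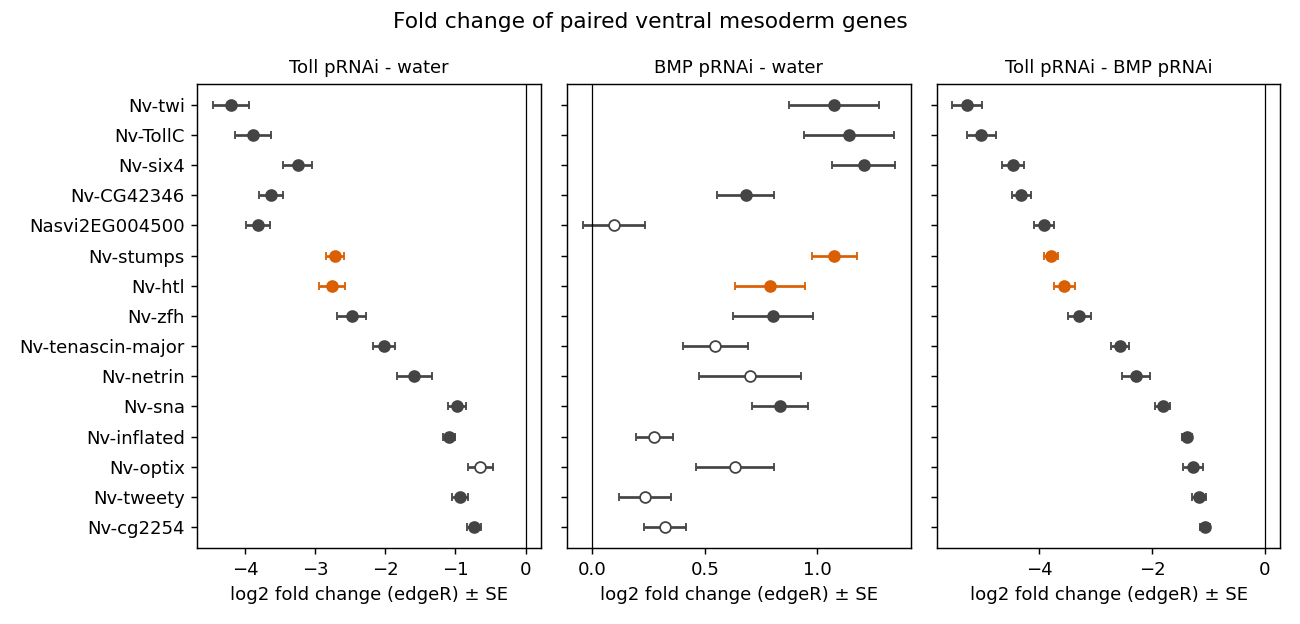
Log2 fold change (edgeR) with its SE for the 15 paired ventral mesoderm genes in each comparison, ordered by the difference between the knockdowns. Orange points mark Nv-htl and Nv-stumps, filled points have an adjusted p under 0.05 and open points do not. The members lie in the middle of the list after Toll pRNAi, at -2.76 and -2.72, and Nv-stumps is nearer its upper end after BMP pRNAi, at 1.08.

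Between the knockdowns all 13 genes were called lower after Toll pRNAi, beside 1.06% of all loci. Their median log2 fold change was -2.57, with a range from -5.28 for Nv-twi to -1.06 for Nv-cg2254. Nv-stumps and Nv-htl held places 6 and 7 of 15. Apart from the members, 5 of 44 genes on a list for the fly mesoderm had a locus here, and 4 of these are the genes Nv-twi, Nv-sna, Nv-zfh and Nv-netrin already counted above. The pairing table used here favours loci that differ, so this subset leans towards genes that changed. The other 1, Nv-ltl, is on the serosa list. It measured 5.26 and 5.43 FPKM in the Toll libraries, 6.50 and 6.13 in water, 3.27 in the dpp library and 3.36 in the gbb library. Unlike the members it fell after BMP pRNAi (log2 fold change -0.97, SE 0.09, edgeR adjusted p = 0.0012) and was higher after Toll pRNAi than after BMP pRNAi (0.76, SE 0.09, edgeR adjusted p = 0.00228), while its value for Toll pRNAi against water was -0.21 (SE 0.09, edgeR adjusted p = 0.212).

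Genes of the serosa, the extraembryonic tissue of the dorsal side, responded in another way. Among the 28 paired genes of the serosa list, also selected on these libraries and paired in the same way, 26 fell after BMP pRNAi, beside 3.49% of all loci. After Toll pRNAi 4 of them rose, beside 2.6% of all loci. Nv-zen, the homeobox gene that specifies this tissue in insects, measured 31.6 and 37.2 FPKM in the Toll libraries, 31.1 and 28.9 in water, 5.36 in the dpp library and 4.01 in the gbb library. Its level was lowest where both FGF genes were highest. Its log2 fold change was -2.67 after BMP pRNAi (SE 0.13, edgeR adjusted p = 3.1e-05) and 0.21 after Toll pRNAi (SE 0.12, adjusted p = 0.332). Nv-vnd, a neuroectodermal homeobox gene, did not respond like the serosa genes. It measured 7.98 and 9.76 FPKM after Toll pRNAi, 12.1 and 12.3 in water and 25.9 and 36.5 after BMP pRNAi. Its log2 fold change after BMP pRNAi was 1.32 (SE 0.16, edgeR adjusted p = 0.00469), above that of either member. After Toll pRNAi it was -0.37 (SE 0.17, edgeR adjusted p = 0.233), and between the knockdowns -1.69 (SE 0.17, edgeR adjusted p = 0.000698). A rise after BMP pRNAi was thus not limited to the mesoderm list.

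The loci with the most similar profile were found by the Euclidean distance of centred log2 CPM over the 6 libraries, as a description. For Nv-htl the 5 nearest were Nv-zfh (0.379), Nasvi2EG001196 (0.441, a locus that also holds Nasvi2EG001197), Nv-stumps (0.450), Nv-sim (0.493) and Nasvi2EG005296 (0.638). For Nv-stumps they were Nv-sim (0.420), Nv-htl (0.450), Nasvi2EG001196 (0.568), Nv-six4 (0.593) and Nv-zfh (0.641). The 1799 loci with an identifier here come from a partial list that gives differing loci first. Loci with such profiles are therefore likely to be among them. In both cases the 5 named were also ranks 1 to 5 among all 10241 loci. The members were thus at rank 3 and rank 2 of each other's lists.

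Nv-sim, ortholog of the fly midline regulator single-minded, is a mesectoderm marker rather than a mesoderm gene. It measured 2.49 and 2.51 FPKM in the Toll libraries, 15.7 and 17.4 in water, 27.7 in the dpp library and 35.7 in the gbb library. Its log2 fold changes were -2.52 after Toll pRNAi (SE 0.14, edgeR adjusted p = 0.000141) and 0.91 after BMP pRNAi (SE 0.12, edgeR adjusted p = 0.00675). It was nearer to Nv-stumps (0.420) than any gene of the ventral mesoderm list, and farther from Nv-htl (0.493) than Nv-zfh and Nv-stumps were.

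Across the alternatives run, no value of either member changed direction. Between the knockdowns both members were past the threshold in all 15 alternatives, and Nv-stumps was also so in all 14 alternatives of Toll pRNAi against water. Nv-htl missed the threshold in 1 of 14 alternatives of Toll pRNAi against water and in 4 of 14 of BMP pRNAi against water, and Nv-stumps in 1 of 14 of the latter.

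**Figure D5:**
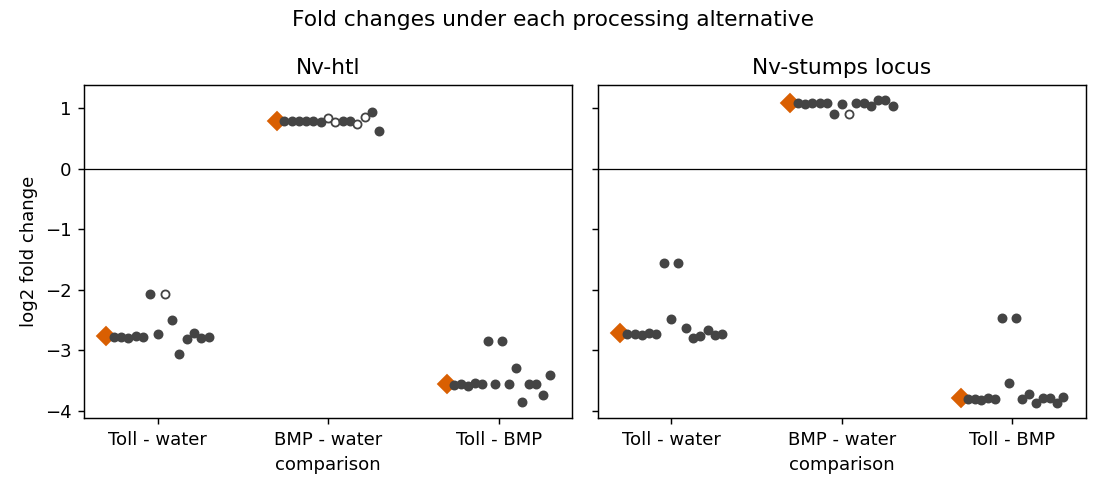
Log2 fold change of Nv-htl (left) and the Nv-stumps locus (right) in each comparison under the reported fit (orange diamond) and under each processing alternative (circles, filled where the adjusted p is under 0.05). All values keep their sign. Fits on log2(FPKM + 1), where the added 1 shrinks changes of low values, give smaller changes, down to -1.57 for Nv-stumps after Toll pRNAi, and open circles occur only in the comparisons with water.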

How the data were processed

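RNA of pooled embryos was sequenced in 6 poly-A libraries, 2 per group. The authors aligned the reads with TopHat2 2.0.3 to assembly 1.0 with annotation 2.0 and ran Cuffdiff from Cufflinks 2.0.2, per the labels and the methods. The deposited table gives, per locus and library, expected counts of fragments, which are not scaled between libraries, and FPKM, which the authors' Cuffdiff run scaled for library size and transcript length. Replicates were matched to libraries by the order in the authors' Cuffdiff command. Gene identifiers come from a partial table that lists differing loci first (1799 loci).

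These expected counts, rounded to integers, entered edgeR 4.0.16 (R 4.3.3), TMM scaling, the default filter (10241 loci kept), all 6 libraries, and Benjamini-Hochberg adjustment at 0.05. SE is the absolute log2 fold change over the square root of F. Ratios used exact permutation tests. Alternatives were DESeq2 1.42.0, RLE scaling, other filters, 2-group fits, limma 3.58.1 on log2 FPKM, a replicate block and leaving out each library. Named genes were the members, the paired ventral mesoderm genes, the markers (Nv-dpp and the ratios to Nv-sna were added after the data were seen) and, for each member, the 5 nearest paired profiles. The members and lists were chosen with earlier results of these data known. The authors' pooled estimates per condition were not used.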

Additional observations from a re-analysis of the deposited data

How the results depend on the processing

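No value of either gene changed direction, and 80 of 86 kept their side of the 0.05 threshold. The exceptions were Nv-htl in BMP pRNAi against water at 0.84 with limma on log2(FPKM + 0.1), Nv-htl at 0.77 and -2.07 and the Nv-stumps locus at 0.91 with limma on log2(FPKM + 1) without filter (adjusted p = 0.102, 0.236, 0.0789 and 0.0523), and Nv-htl in BMP pRNAi against water without either water library. Their cause was not tested.

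The number of loci called moved more. For Toll pRNAi against water it was 371, and 765 with DESeq2, 1238 without filter, 1343 with only the groups compared, and 43, 25 and 23 with limma on log2(FPKM + 1), on log2(FPKM + 0.1) and without filter. For BMP pRNAi against water it was 568, and 1326 with DESeq2, 2053 without filter, 162 with only the groups compared, 223 with limma on log2(FPKM + 0.1) and 16 with limma without filter. Between the knockdowns it was 706, and 1641 without filter and 385, 325 and 141 with the limma fits. Of the 13 other ventral mesoderm genes, counted under alternatives chosen after seeing the data, limma without filter called 0 lower under Toll knockdown and 0 higher under BMP knockdown (13 and 9 at an unadjusted p under 0.05, beside 12 and 6 with edgeR and 13 and 7 with DESeq2) and 7 lower between the knockdowns, and limma on log2(FPKM + 0.1) called 1 higher after BMP pRNAi.

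Leaving out each library in turn gave 22 to 1358, 90 to 2628 and 217 to 2045 loci in the 3 comparisons, and 8 to 13, 1 to 10 and 12 to 13 ventral mesoderm genes. For Nv-htl the log2 fold changes ranged from -3.07 to -2.50, from 0.62 to 0.94 and from -3.86 to -3.29, and for the Nv-stumps locus from -2.79 to -2.64, from 1.03 to 1.13 and from -3.87 to -3.72. The log2 ratio of Nv-htl to Nv-stumps ranged from -0.59 to 0.26, from -0.35 to -0.11 and from -0.36 to 0.49, so its sign was not stable where Toll libraries entered. Where a group kept 1 library, that library was assumed to vary like the other groups.

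Toll and BMP libraries share numbers in their titles, but nothing says that a number marks a batch. Deviations of same-numbered libraries correlated at 0.125. With the number as a replicate block, in a fit of the knockdown libraries only, 1369 loci were called between the knockdowns. The fit of the same libraries without a block called 474. With the block the members were at -3.56 and -3.80. The water libraries carry other numbers, so in the comparisons with water the number and the condition cannot be told apart.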
